A study of Homo sapiens with 15 samples.

Results

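The combination of thymoquinone and 5-fluorouracil (Combi) was set directly against 5-fluorouracil alone (5-FU) in HCT116 cells, a human colorectal cancer cell line. The comparison takes the 3 Combi samples and the 3 5-FU samples, 6 of the 15 samples of the series, and every probe of the class of endogenous genes, which is 730 of the 784 probes listed. Combi cells received 35 µM thymoquinone (TQ) together with 35 µM 5-FU, 5-FU cells received 15 µM 5-FU, and both were collected after 24 h of treatment. Untreated cells (control) and cells given 40 µM TQ alone, 3 samples each and grown in the same RPMI medium with serum, are used here as reference levels. In treatment Combi therefore differed from 5-FU in 2 ways, the presence of TQ and the higher 5-FU dose, and the parts of these 2 changes cannot be told apart. The groups also ran on different assay cartridges, so treatment and cartridge cannot be told apart either. The question was how the transcripts of cancer signaling pathways differed between cells given the combination and cells given the lower dose of 5-FU alone. Per the design text the 3 samples of a group were biological replicates of this single cell line, so the p-values describe the spread among cultures of that line. Each sample was bulk RNA, in which fewer cells of a kind and less RNA per cell cannot be told apart.

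5-FU is a pyrimidine analog whose metabolites block thymidylate synthase and are built into RNA and DNA, and HCT116 cells carry wild-type p53, the transcription factor that answers DNA damage by inducing cell cycle inhibitors and pro-apoptotic genes. TQ is the benzoquinone of black cumin seed oil, a redox-active compound that reacts with thiols and can provoke oxidative stress. Immediate-early genes such as FOS are switched on within minutes of growth factor or stress signaling, and NF-kB is held in the cytoplasm by the inhibitor that NFKBIA encodes.

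In the nCounter assay a pair of probes binds each transcript, and the color-coded reporters are counted directly, with no amplification step. The endogenous genes summed to 238738 to 261686 counts in the 5-FU samples and to 287333 to 607782 in the Combi samples, and 497 to 541 and 511 to 599 genes, respectively, lay above the mean plus 2 SD of the 8 negative probes. Levels are given as scaled counts and differences as log2 fold changes of Combi over 5-FU. Scaled counts are the raw counts after the geometric mean of 40 housekeeping genes was made equal in all samples. On this scale the negative probes averaged 8.39 to 13.9 in 5-FU and 7.25 to 14.6 in Combi, so levels near or under these values are background. The 9 epithelial marker genes on the panel were above background in all samples of both groups and summed to 16770 to 17842 scaled counts in 5-FU and 15034 to 16925 in Combi. Of the 10 blood cell markers 2 and 3 were above background in every sample of 5-FU and Combi, and of the 7 fibroblast and endothelial markers 1 and 1. No marker list had more than 2 genes called between the groups, and those 2 were the epithelial genes CDH1 and PROM1.

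A gene was called when edgeR's quasi-likelihood test gave an adjusted p (Benjamini-Hochberg, over all 730 genes) no higher than 0.05 and the fold change was 1.5 or more. By this rule 56 genes (7.67%) were higher and 30 (4.11%) were lower in Combi than in 5-FU, which is 86 genes (11.8%) in all. The 3 Combi samples did not overlap the 3 5-FU samples in 297 genes (40.7%), with Combi above in 200 (27.4%) and below in 97 (13.3%). Among genes over background the largest increases were those of FOS, IL8 and SPP1, an immediate-early transcription factor, a neutrophil chemokine and a secreted matrix phosphoprotein. Among the genes called lowest were the cohesin subunit STAG2, the end-joining repair factor XRCC4 and the cell cycle kinase CDK4. Over the 730 genes the median log2 fold change was 0.17, so the scaling to housekeeping genes placed the bulk of the panel slightly higher in Combi. With TMM normalization, which trims extreme genes and sets the remaining ones level, the median was 0.07 and the balance moved from 65.1% of calls higher to 47.1%, with 41 genes higher (5.62%) and 46 lower (6.3%). All 86 genes kept their sign with TMM, and 69 of them were called again in the same direction. Without 5-FU replicate 1 the genes called higher numbered 32, and without Combi replicate 3 they numbered 37. With each Combi or 5-FU sample left out in turn, 43 of the 86 genes, FOS, IL8, SPP1, STAG2, XRCC4 and CDK4 among them, were called in every fit, and the other 43 lost the call at least once.

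**Figure D1:**
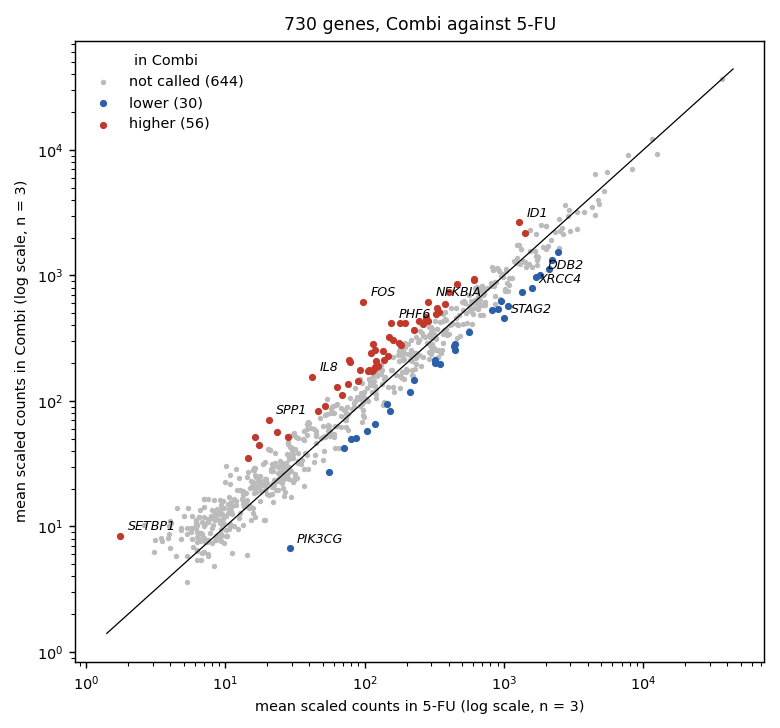
Mean scaled counts of the 730 genes in 5-FU (horizontal axis) and Combi (vertical axis), both on log scales with n = 3 per group, with 56 genes called higher in red, 30 called lower in blue and the diagonal marking equal levels. FOS, IL8 and SPP1 lie farthest above the diagonal among genes over background, and SETBP1 at the lower left is under background in both groups.

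The groups ran on different assay cartridges, as the run names in the labels show. The 5-FU samples, the TQ samples and control replicate 1 shared cartridge 1, Combi replicate 1 ran with control replicates 2 and 3 on cartridge 2, and the remaining Combi replicates had cartridge 3 to themselves. The untreated samples allow the cartridges to be compared without drug. Control replicates 2 and 3 exceeded control replicate 1 in 476 of 730 genes, with a median log2 difference of 0.17. They exceeded it in 48 of the 56 genes called higher in Combi (median 0.32) and in 1 of the 30 called lower (median -0.35). Across the 730 genes, which share libraries and are not independent, this control difference and the log2 fold change of Combi over 5-FU had a Pearson r of 0.467 and a Spearman rho of 0.466. This difference among untreated cells ran the same way as most calls. Cartridge 1 held a single control, so cartridge and the spread between cultures cannot be told apart in it, and treatment and cartridge cannot be told apart by the design.

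**Figure D2:**
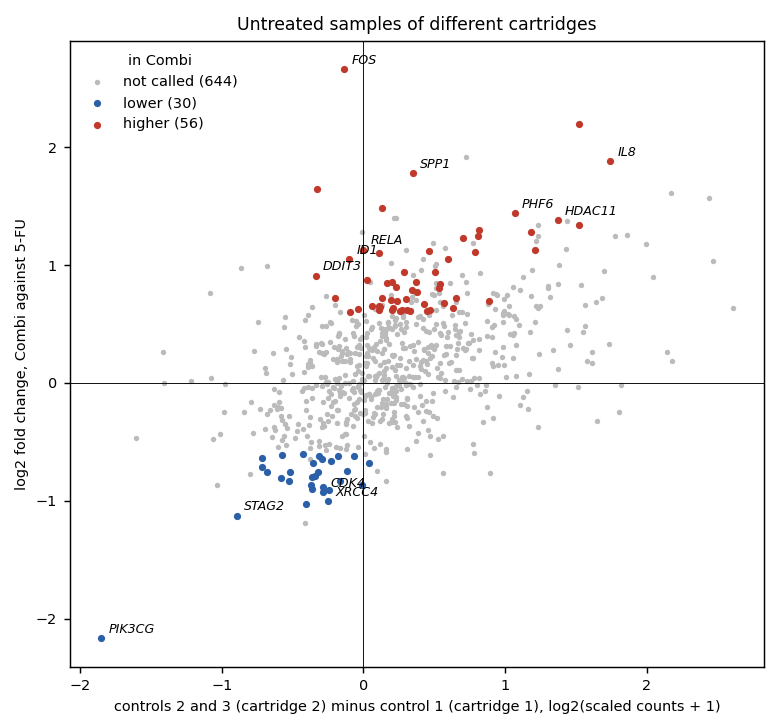
Log2 difference between untreated samples of cartridge 2 and cartridge 1 (horizontal axis) against the log2 fold change of Combi over 5-FU (vertical axis) for the 730 genes, colored by call. Of the 56 red genes 48 lie to the right of 0 and of the 30 blue genes 1 does, and FOS, DDIT3 and ID1 were called higher at a control difference below 0.

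With cartridge as a block in the fit, Combi replicate 1 was in effect read against the controls of its own cartridge and the 5-FU samples against control replicate 1. Only FOS was then called higher (0.137% of 730 genes) and no gene was called lower (0%). At an unadjusted p of at most 0.05 and any fold change, 12 genes were higher and 13 lower. The median standard error of the 86 genes rose from 0.18 to 0.34 on the log2 scale, because the block leaves fewer samples to the contrast. Of the 86 genes, 73 kept their sign and 13 had a fold change of at least 1.5 in the same direction, of which only FOS was called, namely DDIT3, FGF19, FGFR4, FIGF, FOS, ID1, IDH1, NOTCH3, RET and SPP1 above and DDB2, DUSP6 and PRKX below. The sign turned for 13 genes, which were CDH1, CDKN1C, DLL4, EP300, HDAC11, IGF1R, IL8, ITGA7, MAPK3, NUMBL, PLAT, CDKN1B and PIK3CG. When both Combi samples of cartridge 3 were left out, 12 genes were called higher and 9 lower.

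**Figure D3:**
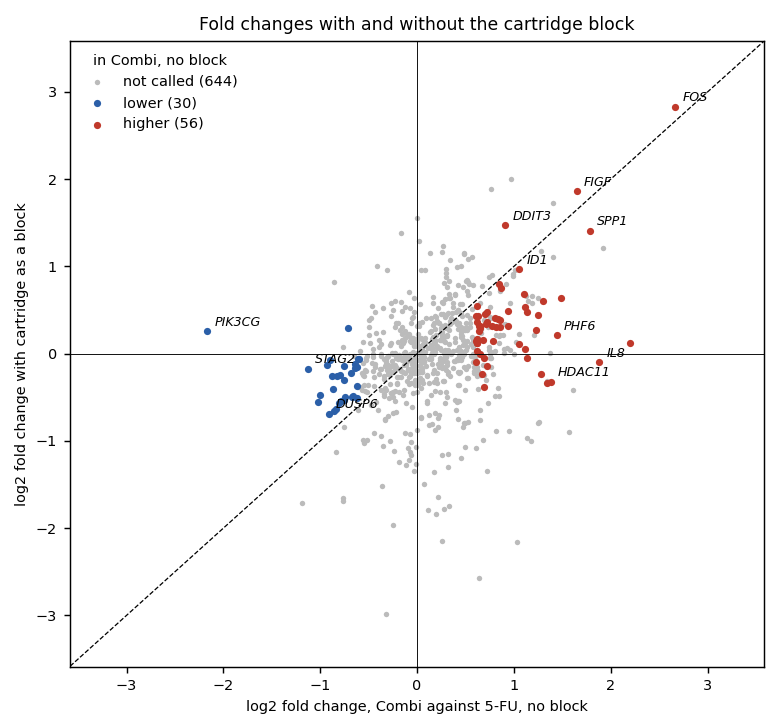
Log2 fold change of Combi over 5-FU without a block (horizontal axis) and with cartridge as a block (vertical axis) for the 730 genes, colored by the call without a block, with the dashed line marking equal values. FOS and FIGF stay near the dashed line, while IL8, HDAC11 and PIK3CG cross to the other side of 0.

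FOS and IL8 had the largest fold changes among the genes over background. The stretches upstream of 3 genes that were called higher are shown because they carry short motifs of CREB, AP-1 and NF-kB. They are the 250 bases before the RefSeq start site, on build GRCh38.p14, with motif matches in capitals. The FOS stretch (chr14:75278578-75278827, plus strand) holds TGACGT, the core of the cAMP response element, from base -64. The stretch of CXCL8, the current symbol of IL8 (chr4:73740319-73740568, plus strand), holds the AP-1 motif TGANTCA from base -137 and the NF-kB motif GGAANTTCC from base -91. The NFKBIA stretch (chr14:35404750-35404999, minus strand) holds GGAANTTCC from base -81.
FOS: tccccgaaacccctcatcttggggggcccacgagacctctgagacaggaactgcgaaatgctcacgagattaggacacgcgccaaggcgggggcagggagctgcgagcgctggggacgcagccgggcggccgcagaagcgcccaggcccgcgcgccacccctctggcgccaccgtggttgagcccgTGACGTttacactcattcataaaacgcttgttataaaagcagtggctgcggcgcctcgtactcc
CXCL8: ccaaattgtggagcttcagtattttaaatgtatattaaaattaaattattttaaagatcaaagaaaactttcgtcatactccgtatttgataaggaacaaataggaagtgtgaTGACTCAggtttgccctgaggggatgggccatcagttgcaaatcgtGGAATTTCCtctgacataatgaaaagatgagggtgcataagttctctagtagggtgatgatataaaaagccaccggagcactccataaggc
NFKBIA: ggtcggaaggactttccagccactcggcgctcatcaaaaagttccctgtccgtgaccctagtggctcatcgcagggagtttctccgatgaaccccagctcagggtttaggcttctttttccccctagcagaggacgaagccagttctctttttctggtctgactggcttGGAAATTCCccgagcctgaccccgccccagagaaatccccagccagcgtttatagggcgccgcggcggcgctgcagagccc
Searched on both strands, TGACGT occurred in 7.1% of 35116 RefSeq promoter windows of this length, TGANTCA in 6.57% and GGAANTTCC in 0.826%. In the 863 windows of panel genes the shares were 7.88%, 6.84% and 1.62%, and none of the matches shown overlap each other. The letters were chosen after these stretches had been read, and a match describes the sequence only.

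FOS, a subunit of the AP-1 transcription factor, stood at 80.6, 102 and 109.8 scaled counts in the 5-FU samples and at 638, 463 and 752 in the Combi samples. The lowest Combi sample was far above the highest 5-FU sample, and the spread within each group was small beside that gap. The log2 fold change was 2.66 ± 0.19 (SE), a 6.33-fold difference (edgeR quasi-likelihood test, adjusted p = 3.31e-09). The controls stood at 133, 141 and 104 and differed by -0.14 on the log2 scale between cartridges, and with the block the log2 fold change was 2.83 (adjusted p = 0.00249). Of the 6 immediate-early genes on the panel, 2 rose (FOS and NR4A1) and none fell, against 7.67% and 4.11% of all genes, and with TMM FOS alone was called. NR4A1, an orphan nuclear receptor, rose by 0.62 on the log2 scale, from 107, 104 and 132 in 5-FU to 159, 189 and 178 in Combi, and was 0.16 with the block. JUN, the partner of FOS in AP-1, missed the 1.5-fold limit at 0.56 (95% interval 0.18 to 0.94), and FOSL1 and MYC were not called at 0.13 (-0.15 to 0.40) and -0.31 (-0.56 to -0.05).

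**Figure D4:**
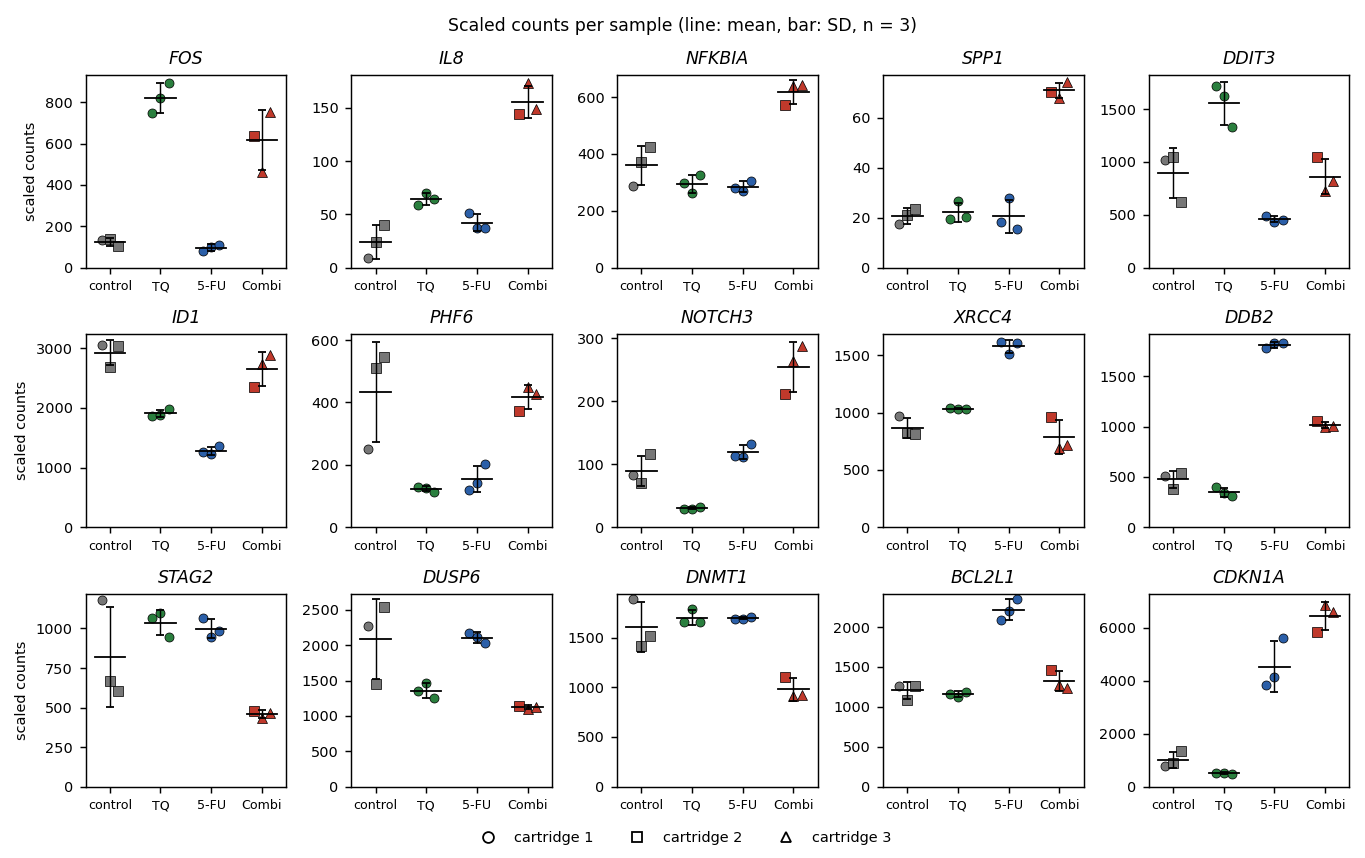
Scaled counts of 15 genes in every sample of control, TQ, 5-FU and Combi, each panel with its own linear axis from 0, where symbols give the cartridge, horizontal lines the mean and bars the SD (n = 3). FOS is high in TQ and Combi only, DDB2 and BCL2L1 are highest in 5-FU, and in PHF6 and STAG2 the 2 controls of cartridge 2 lie nearer to Combi than the control of cartridge 1 does.

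IL8, a chemokine gene controlled by NF-kB and AP-1, stood at 51.3, 37.3 and 37.5 scaled counts in 5-FU and at 144, 173 and 149 in Combi, a log2 fold change of 1.88 ± 0.29 with an adjusted p of 0.000134 in edgeR's quasi-likelihood test. The untreated samples were 8.65, 24.2 and 40.3, with both controls of cartridge 2 above that of cartridge 1, and the block brought the log2 fold change to -0.10. All 3 Combi samples lay above every control, TQ and 5-FU sample. On the authors' normalized values IL8 was not called, at a log2 fold change of 2.19 (limma, adjusted p = 0.0615). NFKBIA, the inhibitor that NF-kB itself induces, was 279.6, 270.1 and 306 in 5-FU and 570.3, 639.7 and 644 in Combi. It rose 2.17-fold (log2 1.12 ± 0.14, adjusted p = 2.12e-05), and all Combi samples exceeded all controls, which were 287, 370.4 and 424, but with the block the log2 fold change was 0.53 and it was not called. RELA, the transactivating subunit of NF-kB, rose by 1.13 on the log2 scale, from 179, 173 and 228 to 268, 503 and 488, where Combi replicate 1 lay well below the other Combi samples, and was 0.47 with the block. NFKBIA and RELA were the 2 genes called among 14 of the NF-kB list (14.3% against 11.8% of all genes). The median log2 fold change of the list was 0.25 against 0.17 for all genes and 0.15 with the block. BIRC3, an apoptosis inhibitor that NF-kB induces, was near background with 12.2, 7.98 and 15.3 in 5-FU and 30.7, 33.2 and 21.6 in Combi and was not called (log2 1.26, 95% interval 0.30 to 2.22).

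Stress and feedback genes changed in both directions. DDIT3, the CHOP transcription factor of the unfolded protein response, was 488, 434 and 448 in 5-FU and 1042, 721 and 819.9 in Combi. The groups did not overlap, and DDIT3 rose 1.88-fold (log2 0.91 ± 0.18, adjusted p = 0.00143). The controls held 1017, 1048 and 618, so Combi samples lay within the range of untreated cells, and the block gave 1.47, larger than the value without it. DDIT3 was the only call among 10 heat shock and stress genes (10% against 11.8% of all genes). Their median log2 fold change was 0.47 and 0.40 with the block. HSP90B1, the endoplasmic reticulum chaperone, was 0.46 (95% interval 0.08 to 0.84) and GADD45A, a damage-induced growth arrest gene, 0.29 (0.02 to 0.56). DUSP6, the cytoplasmic phosphatase that dephosphorylates ERK, was 2172, 2119 and 2031 in 5-FU and 1144, 1093 and 1128 in Combi. The 3 Combi samples were close together and below every control and TQ sample, and DUSP6 fell 1.88-fold (log2 -0.91, adjusted p = 0.000138, -0.69 with the block). DUSP4, a nuclear phosphatase of the same family, rose by 0.62 on the log2 scale, from a mean of 609 ± 43 (SD) to 933 ± 42.5, and was 0.03 with the block. These were the 2 calls among 11 genes of ERK feedback (18.2% against 11.8% of all genes). DUSP5, a nuclear ERK phosphatase, did not reach 1.5-fold with a log2 fold change of -0.37 (adjusted p = 0.0157).

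Among 16 p53-induced genes, BAX rose and DDB2 and TNFRSF10C fell, a share of 18.8% called against 11.8% of all genes, and the median log2 fold change was 0.26 (0.05 with the block). DDB2, which recognizes ultraviolet lesions in nucleotide excision repair, was 1780.3, 1833 and 1826 in 5-FU and 1052, 993 and 1006 in Combi. Both groups lay above the controls at 508, 378 and 541, so Combi was intermediate, and DDB2 fell 1.78-fold (log2 -0.83 ± 0.12, adjusted p = 0.0001, -0.64 with the block). TNFRSF10C, a decoy receptor for the death ligand TRAIL, was likewise intermediate with 493, 420.4 and 419.7 in 5-FU, 323, 290.4 and 244 in Combi and 67.5, 49.9 and 60.5 in control. BAX, which permeabilizes mitochondria, went the other way, from 1287, 1339.8 and 1603 in 5-FU to 1863, 2293 and 2353 in Combi, a log2 fold change of 0.62 (adjusted p = 0.00153) that was 0.13 with the block. The p53 targets with the highest counts differed by less than 1.5-fold. CDKN1A, which encodes the p21 inhibitor of cyclin-dependent kinases, was 3842, 4160.3 and 5625 in 5-FU and 5847, 6877 and 6598 in Combi, against 768, 896 and 1346 in control. The Combi samples were all higher, but the log2 fold change of 0.50 (95% interval 0.15 to 0.86, adjusted p = 0.0417) was under 1.5-fold. MDM2, the ubiquitin ligase of p53, differed by 0.24 (0.03 to 0.45), the death receptor FAS by 0.35 (0.11 to 0.59) and the cell cycle inhibitor SFN by -0.23 (-0.45 to -0.02).

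Apoptosis genes held 3 calls among 15 of the BCL2, caspase and inhibitor list, 20% against 11.8% of all genes, and 1 with TMM, BCL2L1. BCL2L1, which encodes the survival protein BCL-XL, was 2092, 2203 and 2356 in 5-FU and 1461, 1273 and 1237 in Combi, and the Combi samples reached down to the controls at 1268, 1087 and 1264. It fell 1.68-fold (log2 -0.75 ± 0.12, adjusted p = 0.00014), with -0.49 under the block. CASP8, the initiator caspase of death receptors, rose from 252, 265 and 335 to 389.7, 458 and 450.4 (log2 0.61, 0.13 with the block), and BAX was described above. Of 8 death receptor genes only TNFRSF10C was called (12.5% against 11.8% of all genes), and TNFRSF10D, another TRAIL decoy, was 0.19 (95% interval -0.04 to 0.41).

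DNA damage signaling and repair had 5 calls among 36 genes, 2 higher and 3 lower (13.9% against 11.8% of all genes), with a median log2 fold change of 0.06 (0.00 with the block). XRCC4, which holds DNA ligase IV in non-homologous end joining, was 1614, 1511 and 1611 in 5-FU and 959, 693 and 716 in Combi. The 5-FU samples lay above all others and the Combi samples within or below the controls at 970.3, 821 and 810.1, and XRCC4 fell 2.01-fold (95% interval of the log2 fold change -1.25 to -0.75, adjusted p = 1.63e-05, -0.47 with the block). DDB2 and FANCG, a core protein of the Fanconi anemia complex (log2 -0.66), also fell. RAD52, a mediator of homologous recombination, rose from 144, 154 and 153 to 273, 338 and 361, but its controls were 118, 221 and 188, higher on cartridge 2, and the block left 0.06. ATM, the kinase that signals double-strand breaks, rose from 62.3, 62.5 and 65.3 to 105, 134 and 152 (log2 1.05, 0.11 with the block). STAG2, a subunit of the cohesin ring, was 1067, 946 and 984 in 5-FU and 478, 432 and 464 in Combi, the latter below every other sample in the comparison. It fell 2.18-fold (log2 -1.13 ± 0.18, adjusted p = 0.000138). The controls were 1183, 671 and 603, that is, higher on cartridge 1, and with the block the log2 fold change was -0.17. STAG2 was the only call among 5 cohesin genes (20% against 11.8% of all genes). RAD21, the ring subunit cleaved at anaphase, had -0.56 (95% interval -0.77 to -0.35) and was called with TMM. None of 13 replication genes and none of 6 histone genes was called (0% each against 11.8% of all genes). MCM7, part of the replicative helicase, was at -0.29. The histone genes H3F3C and HIST1H3H were at -0.45 (-0.66 to -0.24) and -0.16 (-0.57 to 0.25).

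Cell cycle kinases were lower where they were called. Of 19 cyclin and CDK genes 3 fell (15.8% against 4.11% of all genes) and none rose, and the list's median log2 fold change was -0.15 against 0.17 for all genes, -0.25 with TMM and -0.18 with the block. CDK4, a G1 kinase bound by D cyclins, was 1165, 1120.2 and 921 in 5-FU, close to the controls at 1271, 1104 and 988, and 805, 429 and 468 in Combi. Combi replicates 2 and 3 were far below Combi replicate 1, and the log2 fold change of -0.93 (adjusted p = 0.00169) was -0.13 with the block, which leaves the samples of cartridge 3 out of the contrast. PKMYT1, which inhibits CDK1 before mitosis, fell from 437, 428 and 468 to 242, 264 and 264 (log2 -0.79, -0.54 with the block), and CDK6, the other D cyclin kinase, by 0.60 on the log2 scale (-0.06 with the block). Cyclin genes were not called, with CCND1 at -0.39 (95% interval -0.71 to -0.08) and CCNB1 at -0.37 (-0.58 to -0.15). Of 14 CDK inhibitors and E2F-RB genes 1 rose and 2 fell (21.4% called against 11.8% of all genes). E2F1, the transcription factor released by RB, fell from 206, 218 and 249 to 150.0, 139.6 and 148, below all controls (log2 -0.62, -0.51 with the block). CDKN1B, the p27 inhibitor, fell and CDKN1C, the p57 inhibitor, rose, at -0.71 and 0.67, and the block turned them to 0.30 and -0.24.

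Chromatin and DNA methylation genes held 9 calls, 7 higher and 2 lower of 34 (26.5% against 11.8% of all genes), although the list's median log2 fold change was 0.10, under that of all genes, and -0.05 with the block. PHF6, a PHD finger protein, was 119.7, 142 and 202 in 5-FU and 374, 450.0 and 427 in Combi. The control of cartridge 1 stood at 251 and those of cartridge 2 at 510 and 545, so the Combi samples lay within the controls, and the log2 fold change of 1.44 ± 0.22 (adjusted p = 0.000134) became 0.21 with the block. HDAC11, a histone deacetylase, rose by 1.38 on the log2 scale and had controls of 70.9, 163 and 210.1, with -0.32 under the block. ARID2 and ARID1B, subunits of SWI/SNF remodeling complexes, rose by 0.81 and 0.71 on the log2 scale, the deacetylase HDAC5 by 0.79 and the acetyltransferase EP300 by 0.61. SMARCB1, a core SWI/SNF subunit, fell by 0.61 on that scale. The seventh gene called higher, SETBP1, was not above the negative probes in any sample of either group, so no fold change is given. DNMT1, the maintenance DNA methyltransferase, was 1689, 1691 and 1704 in 5-FU and 1108, 907 and 918 in Combi. The 5-FU samples were nearly equal, all Combi samples were below all controls, and DNMT1 fell 1.74-fold (log2 -0.80 ± 0.12, adjusted p = 9.77e-05, -0.25 with the block). None of 9 genes of RNA polymerase II, splicing and the nucleolus was called (0% against 11.8% of all genes, median -0.14).

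Growth factor receptors leaned higher, with 5 of 20 called higher and none lower (25% against 7.67% of all genes). With TMM 3 of the receptors were called higher, FGFR3 and IGF1R losing their call, and with the block none was called. The median log2 fold change of the 20 receptors was 0.63 against 0.17 for all genes. It was 0.54 against 0.07 with TMM and 0.21 against -0.01 with the block. FGFR4, a receptor for FGF19, was 72, 79.8 and 79.2 in 5-FU and 132, 262 and 244 in Combi, with Combi replicate 1 at the level of the controls, which were 118, 121 and 138. It rose 2.8-fold (adjusted p = 0.0001, 0.64 on the log2 scale with the block). ERBB2, the HER2 receptor, rose from 247, 293 and 284 to 451, 494 and 455, with controls of 318, 352 and 487. RET, a receptor of the GDNF family of ligands, rose by 0.85 on the log2 scale and was 0.80 with the block, where it was not called, at the low level of 55.7, 50.6 and 47.3 in Combi. FGFR3 and the insulin-like growth factor receptor IGF1R rose by 0.61 and 0.65 on the log2 scale, and IGF1R was -0.01 with the block, with 125, 208 and 226 in Combi and 114, 122 and 116 in control. Of 44 growth factors 2 rose (4.55% against 7.67% of all genes) and none fell. FGF19, an endocrine FGF, rose from 142, 129 and 138 to 234, 246 and 266 (log2 0.87, 0.75 with the block, near-equal controls of 214, 199.5 and 239). FIGF, which encodes VEGF-D, went from 22, 14.6 and 12.5, above background in 1 of 3 samples, to 47.7, 54.8 and 52.7, a log2 fold change of 1.65 (1.86 with the block, not called). With counts under 20 set to 20 RET and FIGF lost their call, at 0.74 and 0.98.

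In the kinase cascades below these receptors 3 of 19 RAS-RAF-ERK genes were called (15.8% against 11.8% of all genes). MAPK3, the ERK1 kinase, and NF1, a brake on RAS, rose by 0.69 and 0.65, and HRAS fell by 0.68 on the log2 scale. HRAS was 403, 442 and 463 in 5-FU and 322, 252 and 249.7 in Combi, above the controls at 216, 248 and 200.0, while MAPK3 was higher on cartridge 2 in untreated cells (235, 411 and 464) and turned to -0.39 with the block. Of 24 genes of the PI3K-AKT-mTOR axis 2 rose and 3 fell (20.8% called against 11.8% of all genes). The median was 0.07 against 0.17 for all genes. With TMM none of the 24 was called higher and 3 were called lower, and with the block none was called. PIK3CG, a catalytic subunit found mainly in leukocytes, was 26.9, 30.6 and 29.2 in 5-FU and under background in all Combi samples at 10.2, 6.32 and 3.59. Its controls ran from 34.6 on cartridge 1 to 15.1 and 5.04 on cartridge 2, and the log2 fold change of -2.16 was 0.26 with the block and -0.99, not called, with counts under 20 set to 20. PIK3R1, the regulatory subunit p85, fell by 0.90 on the log2 scale (-0.07 with the block) and PPP2R1A, the scaffold of phosphatase 2A, by 0.68, whereas the phosphatase subunit PPP2R2C and the kinase MTOR rose by 0.63 and 0.62. AKT1 was not called (log2 -0.32, 95% interval -0.53 to -0.10). Of 19 JNK and p38 genes FLNC, an actin cross-linker, was the only call (5.26% against 11.8% of all genes). Its log2 fold change was 0.72. It was not called with the block, with DESeq2 or on the authors' values. NF2, the merlin tumor suppressor of the Hippo pathway, was 1291, 1317 and 1455 in 5-FU and 793, 736 and 697 in Combi, the latter near the controls at 844, 676 and 632, and it fell 1.83-fold (adjusted p = 7.86e-05). CIC, a repressor that ERK signaling inactivates, fell from 214, 242 and 174 to 94.3, 135 and 127, and the controls were 96.9, 63.5 and 65.5.

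Among 32 genes of TGF-beta, activin and BMP signaling 2 rose and 3 fell (15.6% called against 11.8% of all genes). ID1, an inhibitor of differentiation factors and a direct BMP target, was 1261, 1229 and 1358 in 5-FU and 2344, 2744 and 2891 in Combi. Combi samples were in or near the range of the controls at 3061, 2679 and 3042, and ID1 rose 2.07-fold (log2 1.05 ± 0.14, adjusted p = 3.19e-05). The control difference between cartridges was -0.10, and the block gave 0.97 ± 0.26 (adjusted p = 0.35), close to the value without it but with a wider error. ID2, its paralog, was -0.04 (95% interval -0.31 to 0.22). BMP4, a ligand upstream of the ID genes, moved the opposite way, from 805, 847 and 799 to 593, 452 and 555 (log2 -0.62, -0.16 with the block). AMH, a ligand of the family, and ACVR1B, an activin receptor, fell by 1.03 and 0.62 on the log2 scale, and ACVR2A, another activin receptor, rose by 0.62.

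Of 18 Notch genes 5 rose and 1 fell (33.3% against 11.8% of all genes). The receptors parted, as NOTCH3 and NOTCH2 rose and NOTCH1 fell. NOTCH3 was 114, 112 and 132 in 5-FU and 211, 263 and 288 in Combi, above all controls at 83, 69.5 and 116, a 2.15-fold difference (adjusted p = 0.000134, log2 1.10 and 0.68 with the block). NOTCH2 rose from 353, 411 and 367 to 507, 656 and 608 (log2 0.65). NOTCH1 went from 371, 337 and 339 to 203, 189 and 199, still above the controls at 129.7, 77.1 and 104, a log2 fold change of -0.83 (-0.26 with the block). HES1, a repressor that Notch induces, rose from 85.5, 85.1 and 108 to 160.2, 188 and 184, and its untreated samples were 123, 127 and 176. The ligand gene DLL4 and the Notch antagonist NUMBL rose by 1.28 and 0.69 on the log2 scale but were -0.24 and -0.05 with the block, and over the 18 genes the median was 0.24 without and -0.01 with it.

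The WNT lists below held 3.85%, 0% and 9.52% of genes called, in that order, against 11.8% of all genes. Of 26 ligands, receptors and antagonists only FZD3, a Frizzled receptor, rose (log2 0.72, 98.9, 110.4 and 111 against 151, 183 and 191), and none of 16 genes of the beta-catenin core and its targets was called. CTNNB1, which encodes beta-catenin, was 2730.3, 2809.9 and 3256 in 5-FU and 3572, 3132 and 3222 in Combi, overlapping ranges with a log2 fold change of 0.17 (95% interval -0.05 to 0.40), and WNT16 was 0.26 (-0.05 to 0.56). Of 21 genes of the WNT calcium and PKA branch, the kinase PRKX and the small GTPase RAC3 fell by 0.86 and 0.64 on the log2 scale. With the block PRKX was -0.66 and RAC3 -0.11, neither of them called.

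SPP1, which encodes osteopontin, was 18.3, 27.9 and 15.3 in 5-FU, above background in 2 of 3 samples, and 70.4, 68 and 74.3 in Combi. The controls at 17.3, 21.2 and 23.5 and the TQ samples at 19.6, 26.5 and 20.5 were all near the 5-FU level, and SPP1 rose 3.44-fold (log2 1.78 ± 0.30, adjusted p = 0.00026, 1.41 with the block). COL4A5, a basement membrane collagen, rose from 183, 154 and 199 to 358, 461 and 434 (log2 1.23, 0.28 with the block). These were the 2 calls among 26 matrix genes (7.69% against 11.8% of all genes). The lists that follow had 11.1% (laminins and integrins), 5.56% (interleukins), 18.2% (JAK-STAT-SOCS), 8.33% (phospholipases) and 22.2% (stemness and differentiation) called. Of 18 laminins and integrins ITGA2 and ITGA7 rose, by 0.86 and 1.34 on the log2 scale, with ITGA7 above background in 1 of 3 5-FU samples and at -0.33 with the block and 0.75, not called, with counts under 20 set to 20. The tissue plasminogen activator PLAT rose by 1.13 on the log2 scale, from 94, 112 and 125 to 256, 233 and 235, and with controls of 53.6, 95.2 and 165 it was -0.05 with the block. Of 36 interleukin and receptor genes only IL8 and IL6R were called, IL6R at a log2 fold change of 0.68. IL6R, like ITGA7, lost its call in every fit with 1 Combi or 5-FU sample left out. Of 11 JAK-STAT-SOCS genes STAT3 fell from 913, 883 and 928 to 591, 514 and 508, above the controls at 449.7, 337 and 385 (log2 -0.76), and BCL2L1, also on this list, fell as given above. PRDM1, a repressor that drives plasma cell differentiation, went from 116, 110.4 and 129 to 80.7, 55.9 and 59.3, with controls of 29.4, 22.7 and 25.2 near background. Of 12 phospholipases only PLA2G4C was called, from 9.77, 14.6 and 19.5, above background in no 5-FU sample, to 36.4, 31.6 and 36.5, and its log2 fold change of 1.25 was 0.40, not called, with counts under 20 set to 20. Of 9 stemness and differentiation genes KLF4 and PROM1, which encodes CD133, rose by 0.94 and 0.64 on the log2 scale. Neither was called with the block. IDH1, a cytosolic dehydrogenase of NADPH supply outside these lists, rose from 103, 112 and 131 to 310.2, 256 and 285 toward the controls at 242, 358 and 508 (log2 1.30, 0.60 with the block).

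**Figure D5:**
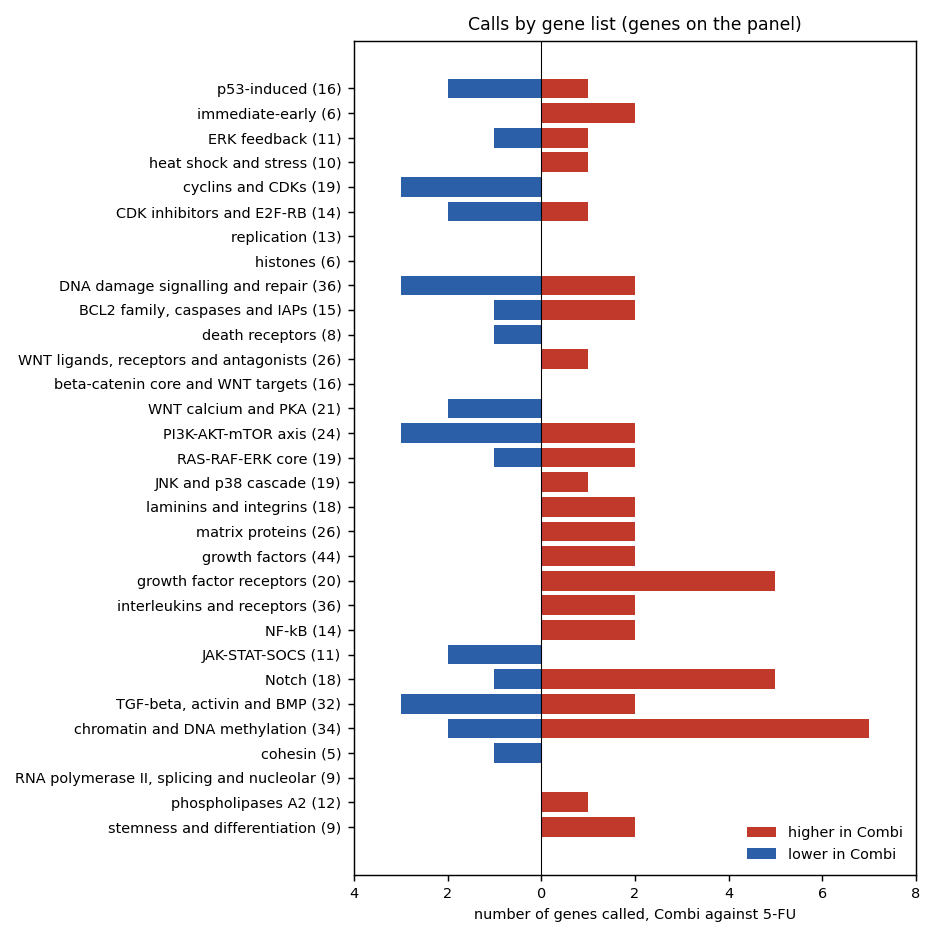
Number of genes called higher (red, to the right) and lower (blue, to the left) in Combi against 5-FU in each gene list, with the number of list genes on the panel in parentheses. Chromatin, Notch and growth factor receptor lists have the most calls higher, and the replication, histone, beta-catenin and RNA polymerase II lists have none.

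A list of 22 genes that the study named for the combination held 4 called higher, FOS, SPP1, PLA2G4C and PROM1, and 1 called lower, DNMT1. The study named many of these genes from the same samples, so the count is not independent evidence of their direction. Others, such as PROM1 and AXIN2, it took up as a stem cell marker and a WNT target. Its directions are against untreated cells, not against 5-FU. For CD133, the protein of PROM1, it reports lower levels after 5-FU and after Combi, at a later time. PROM1 was 107, 124 and 140.4 in 5-FU and 170.4, 192 and 212 in Combi, the controls were 157, 168 and 197, and the block left 0.25 of a log2 fold change of 0.64. Not called were NGFR, a neurotrophin receptor, with 288, 326 and 277 in 5-FU and 320.4, 443 and 403 in Combi (log2 0.40, 95% interval 0.10 to 0.69, adjusted p = 0.0512), the nucleolar NPM1 (-0.27, -0.85 to 0.32) and the WNT target AXIN2 (0.21, -0.26 to 0.67). JUN, HIST1H3H, BIRC3, ID2 and MYC were given above. Another 8 genes of the list had group means under 50 scaled counts. EGF (0.91), SPRY1 (0.85), IGFBP3 (0.86), PLA2G10 (0.96), FGF9 (0.32) and DKK2 (0.22) had positive log2 fold changes that were not called. EGF had 13.4, 12 and 18.1 in 5-FU, under background in every sample, and 23.9, 34.3 and 23.4 in Combi, and its 95% interval was 0.03 to 1.80. FST was above background in no 5-FU sample and 1 Combi sample and PAK7 in no sample of either group, so no fold change is given for them.

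Read against untreated cells, the calls fell into several kinds. Of the 56 genes called higher, 29 had all Combi samples above all controls and 27 overlapped the controls, and the 5-FU mean lay below the control mean in 39 of the 56. FOS, IL8, NFKBIA, SPP1, NOTCH3, BAX and DUSP4 were among the 29. ID1, PHF6, IDH1 and MTOR were among the 27, with Combi samples that overlapped untreated cells and a 5-FU mean below theirs. Of the 30 genes called lower, 10 had all Combi samples below all controls (BMP4, CDK4, CDKN1B, DNMT1, DUSP6, E2F1, PPP2R1A, RAC3, SMARCB1 and STAG2). In 6 the Combi samples stayed above all controls (DDB2, HRAS, NOTCH1, PRDM1, STAT3 and TNFRSF10C), and in 14 they overlapped, with the 5-FU mean above the control mean in 27 of the 30. The controls behind these counts came from both cartridges and differed as described above. The genes were called on the same 5-FU and Combi samples that enter these counts. That choice by itself favors a 5-FU mean below control among genes called higher and above control among genes called lower. It likewise favors Combi samples above controls in the former and below them in the latter. No share over all genes is given for comparison, so the counts describe the called genes only.

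TQ alone, at 40 µM against the 35 µM in Combi, gives the levels of the added agent without 5-FU. TQ was compared with control in the same fit, and this contrast shares no sample with Combi against 5-FU. It called 25 genes higher (3.42%) and 158 lower (21.6%). The genes called higher in both contrasts were 3, DDIT3, FOS and IL8, which is 5.36% of the 56 and 12% of the 25. FOS was 749, 821 and 894 in TQ, with a log2 fold change of 2.70 over control, and the difference between the 2 contrasts was -0.04 (95% interval -0.60 to 0.52). DDIT3 stood at 1719, 1622 and 1328 in TQ (log2 0.80 over control), and IL8 at 58.8, 70.3 and 64.8 (1.42). The contrasts differed by 0.11 for DDIT3 (95% interval -0.42 to 0.64) and by 0.46 for IL8 (-0.53 to 1.46), so for neither gene was a difference shown. These 3 genes were chosen because both contrasts called them higher. That choice by itself favors a small difference between the contrasts, so the differences are a description. With the cartridge block only FOS was called higher in both contrasts. DUSP6 was the only gene called lower in both, at 1354, 1469 and 1248 in TQ (log2 -0.62).

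Other genes were called in opposite directions in the 2 contrasts. TQ and 5-FU ran on cartridge 1, while Combi and control replicates 2 and 3 did not, and with the cartridge block the number of such genes was 0. That number could not exceed 1, because with the block only FOS was called in Combi against 5-FU. Without the block, of the 56 genes called higher in Combi over 5-FU, 20 were called lower in TQ against control. This is 35.7% of the 56 and 12.7% of the 158. The 20 were ARID1B, CDH1, CDKN1C, COL4A5, DUSP4, ERBB2, FUT8, HDAC11, HOXA9, ID1, IDH1, ITGA2, ITGA7, LEPR, MAPK3, NOTCH3, PHF6, PLAT, RET and SPOP. CIC, FANCG and MAPK8IP2 were called lower in Combi and higher in TQ. PHF6 was 129.8, 126 and 114 in TQ, with a log2 fold change of -1.82 against control and 1.44 for Combi against 5-FU. NOTCH3 was 29.4, 29.6 and 32.4 in TQ, a log2 fold change of -1.55 against its 1.10 in Combi. ID1 was 1870.4, 1882 and 1980.0 in TQ, -0.62 against control. The other 33 genes called higher and 26 called lower in Combi were not called in TQ.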

How the data were processed

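RNA of HCT116 cells (50 ng per sample) was measured on the nCounter PanCancer Pathways panel. The authors deposited raw barcode counts, and normalized values made in nSolver 3.0 with the housekeeping genes, a signal that for 100% of values lay within 1% of the background-subtracted count times 1 factor per sample. The deposited table of fold changes and p-values holds the authors' comparisons and was not used. Group and cartridge came from the labels.

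Raw counts of 730 genes from all 15 samples in 5 groups were scaled by the geometric mean of 40 housekeeping genes and tested in edgeR 4.0.16 (R 4.3.3; glmQLFit, glmQLFTest) after a check on simulated data. A call needed an adjusted p (Benjamini-Hochberg) no higher than 0.05 and 1.5-fold. Alternatives were TMM, DESeq2 1.42.0, limma 3.58.1 on the authors' values, cartridge and replicate blocks, low-count rules and left-out samples. Background was the mean plus 2 SD of the negative probes. The positive probes were not used. SARB samples entered only the shared fit.

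The text names the 15 largest calls in each direction whose groups did not overlap and which were above background in the higher group, up to 4 called and 2 uncalled genes per list, and the genes the study named, except 1 that is not reported here. Further called genes were named after their values were seen. Members and lists were chosen with earlier results of these data known. Promoters came from RefSeq, and 705 of 730 genes matched its symbols. Replicate numbers do not pair samples: same-numbered Combi and 5-FU samples had deviations correlated at -0.20, 0.00 and -0.17. No replicates were alike within counting noise. Counting error alone limits genes near background.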

Additional observations from a re-analysis of the deposited data

Results flagged for a closer look

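The 2 contrasts that add TQ, Combi against 5-FU and TQ against control, were called in opposite directions in 23 genes (edgeR's quasi-likelihood test). The genes were chosen by those calls, so the differences between the contrasts are a description. The largest was that of PHF6 at 3.26 on the log2 scale, followed by ITGA7 at 3.15, HDAC11 at 2.97 and NOTCH3 at 2.66. Combi and control replicates 2 and 3 ran on other cartridges than TQ and 5-FU, and with cartridge as a block the count was 0. With that block only FOS was called in Combi against 5-FU, so the count could not exceed 1. It was 28 with TMM normalization, 46 with housekeeping genes of at least 100 counts, 9 with cartridge as a random block, 6 without both Combi samples of the third cartridge and 14 to 39 with 1 sample left out, with 14 without 5-FU replicate 1, 15 without 5-FU replicate 2 or Combi replicate 3 and 39 without control replicate 1.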

How the results depend on the processing

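The main counts were 56 genes higher and 30 lower. DESeq2 gave 30 and 57, TMM 41 and 46, housekeeping genes with at least 100 counts 101 and 16, cartridge as a random block 32 and 19, cartridge as a block 1 and 0, no minimum fold change 84 and 57, and an unadjusted p 86 and 34. The share of calls that were higher was 34.5% with DESeq2 and 86.3% with housekeeping genes of at least 100 counts. An alternative chosen after seeing the data, without both Combi samples of the third cartridge, gave 12 and 9. With 1 Combi or 5-FU sample left out the counts lay between 32 (without 5-FU replicate 1) and 73 for higher, 37 being the count without Combi replicate 3, and between 22 and 43 for lower. Genes higher in both contrasts were 3, and 1 with the cartridge block. The single gene lower in both became 0 with TMM, DESeq2 or the cartridge block, 2 with the authors' values, counts under 20 set to 20, only the groups compared or an unadjusted p, 8 with no minimum fold change, and 0 to 5 with 1 sample left out. A replicate block gave 54 and 30 and left the counts shared with TQ at 3 and 1, with ITGA7 and IL6R losing their call, and the numbers do not pair the samples. All 86 genes kept their sign with TMM, DESeq2, the random block and each left-out sample. The authors' values gave 44 and 30, with 59 of the 86 genes called again in the same direction and IL8 not among them. The 43 genes that lost their call with at least 1 Combi or 5-FU sample left out were ACVR1B, ACVR2A, AMH, BAMBI, BAX, BMP4, CASP8, CBLC, CDH1, CDK6, CDKN1B, CDKN1C, CIC, DLL4, DUSP4, E2F1, EP300, FANCG, FGFR3, FLNC, FUT8, HES1, HOXA9, IGF1R, IL6R, ITGA7, MAPK3, MAPK8IP2, MTOR, NOTCH2, NR4A1, NUMBL, PLA2G4C, PPARG, PPP2R2C, PRKX, PROM1, RAC3, RET, SETBP1, SMARCB1, SPOP and TNFRSF10C. Counts under 20 set to 20 ended the call of FIGF (0.98), ITGA7 (0.75), PLA2G4C (0.40), PIK3CG (-0.99) and RET (0.74). With the cartridge block the log2 fold change turned to -0.10 for IL8, -0.32 for HDAC11, -0.33 for ITGA7, -0.24 for DLL4, -0.050 for PLAT, 0.26 for PIK3CG, 0.30 for CDKN1B, -0.24 for CDKN1C, -0.39 for MAPK3, -0.0056 for IGF1R, -0.15 for CDH1, -0.10 for EP300 and -0.049 for NUMBL, and among uncalled genes to 0.58 for NPM1, 0.31 for HIST1H3H, -0.025 for JUN, -0.78 for BIRC3, -0.34 for AXIN2, -0.71 for DKK2, 0.18 for ID2, -0.10 for MDM2, -0.18 for CDKN1A, -0.0030 for FAS, -0.065 for FOSL1, 0.075 for CCND1 and -0.16 for WNT16. Other turned values were 0.32 for NPM1 and -0.25 for AXIN2 without the third cartridge, 0.0016 for HIST1H3H and 0.0070 for ID2 with the random block, -0.85 for SETBP1 and -0.29 for DKK2 with counts under 20 set to 20, -0.17 for SETBP1 with the authors' values, 0.10 for ID2 with housekeeping genes of at least 100 counts, -0.044 for FOSL1 and -0.0013 for CTNNB1 with DESeq2, and with 1 Combi or 5-FU sample left out ID2 lay between -0.080 and 0.012. The causes were not tested.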
